A study of Mus musculus with 57 samples.

Results

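Fibroblast growth factor (FGF) signalling was described through 10 genes of the deposited count table, which holds 55450 gene identifiers. The genes were taken by name after the identifiers had been matched to symbols in GENCODE release M21 of the mouse genome GRCm38. They comprise 3 ligands (Fgf4, Fgf8 and Fgf15), 3 receptors (Fgfr1, Fgfr2 and Fgfr3) and 4 genes of the negative feedback and target arm (Spry2, Spry4, Dusp6 and Etv4). All 10 were found in the table, and each was followed in 57 RNA-seq libraries from 19 conditions with 3 replicates each.

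The cells were mouse embryonic stem cells (ESCs) of the Sox1-EGFP/FoxA2mCherry line, a single clone in which EGFP replaces one allele of Sox1 and mCherry is joined to FoxA2, so that SOX1 marks neuroectoderm and FOXA2 marks endoderm in living cells. D0 cells came from SerumLIF, the medium that keeps ESCs pluripotent, were not exposed to retinoic acid and were sorted as Sox1-FoxA2-. The others received 1 uM retinoic acid in N2B27 for 2, 4 or 6 days and were sorted by FACS as Sox1-FoxA2-, Sox1+FoxA2-, Sox1-FoxA2+ or Sox1+FoxA2+. In the second arm, cells of the gates Sox1+FoxA2-, Sox1-FoxA2+ or Sox1+FoxA2+ were taken at D2, replated in retinoic acid with a serum-based medium and collected as D4 progeny or D6 progeny. These were not sorted again, so their names refer to the D2 gate of the parents, and replating and the change of medium cannot be told apart. The samples are bulk populations, in which fewer cells of a type and less RNA per cell cannot be told apart.

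FGFs bind receptor tyrosine kinases together with heparan sulphate, and the active receptor signals through the adaptor FRS2, RAS and the MAP kinases ERK1 and ERK2. ERK switches on ETS factors such as ETV4 and, at the same time, genes that limit the pathway: the Sprouty proteins act upstream on RAS and RAF, whereas DUSP6 removes the activating phosphates from ERK in the cytoplasm. In ESCs, FGF4 is the main ligand made by the cells themselves and drives their exit from naive pluripotency. FGF8 and FGF15 are known from the patterning of the nervous system, and FGFR1 and FGFR2 act together in the formation of primitive endoderm.

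The libraries held between 10170632 and 81845651 counts, with a median of 36694379, and between 14458 and 27832 genes with a count. Foxa2, which checks the gate, lay between 1478 and 3241 normalized counts in the 9 sorted Sox1-FoxA2+ libraries and between 0 and 324 in the 9 sorted Sox1+FoxA2- libraries. In the 9 sorted Sox1+FoxA2+ libraries it ran from 0 to 1956. The libraries labelled D6 Sox1+FoxA2+ replicates 1 and 3 held 0 and 76.6, and the one labelled D4 Sox1+FoxA2+ replicate 1 held 214. All of these lay within the range of the sorted Sox1+FoxA2- libraries. The gate was set on mCherry fluorescence and not on Foxa2 RNA. Sox1, which lies inside another annotated gene, was at 0 in every library and could not check the gate, and the cause of its zeros was not tested. The summed level of 10 endoderm markers was 816600 to 1787000 in D6 Sox1-FoxA2+, 80820 to 590100 in D6 Sox1+FoxA2+ and 8481 to 14070 in D6 Sox1+FoxA2- cells.

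The counts appear to cover whole gene spans, which sets what can be read for each FGF gene. All 1287 protein-coding genes that lie wholly inside another gene had no count in any library, on either strand, against 2.71% of the 20664 other protein-coding genes. Counting over whole gene spans, introns included, with reads in a shared stretch dropped on either strand, gives this pattern. The counting options are not given in the sources used here. Fgfr2 had the longest span of the 10 genes. In GENCODE M21 it runs from 130162451 to 133123350 on chromosome 7, a span of 2961 kb, because 1 of its 27 transcripts reaches far upstream. The other transcripts end by 130266263 and cover 103.8 kb. The long span takes in 29 other protein-coding genes, Bub3 and Oat among them, and all 29 were at 0. Fgfr2 held 854 CPM (counts scaled to the same library total) on average and 11917 to 84535 normalized counts, and per kb of span outside other genes its 0.689 CPM lay above all 58 other genes of at least 1 Mb, whose median was 0.0596. Its counts may hold reads from anywhere in this stretch, and the share that is Fgfr2 receptor RNA was not tested. The long genes' median density over each member's own span came to 8.66% of the mean count for Fgfr2, 0.419% for Dusp6, 9.84% for Fgfr3, 12.3% for Fgf4, 27.2% for Fgf8 and 40.5% for Fgf15. This was 1.07 CPM for Fgf4 and 0.799 for Fgfr3, and low conditions lay near or below it. Fgf4 averaged 0.252 to 0.670 CPM in D6 progeny. Fgfr3 averaged 1.03 in D2 Sox1-FoxA2+ and 1.23 in D6 Sox1+FoxA2- cells, so its fold changes from these levels start near this density.

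**Figure D1:**
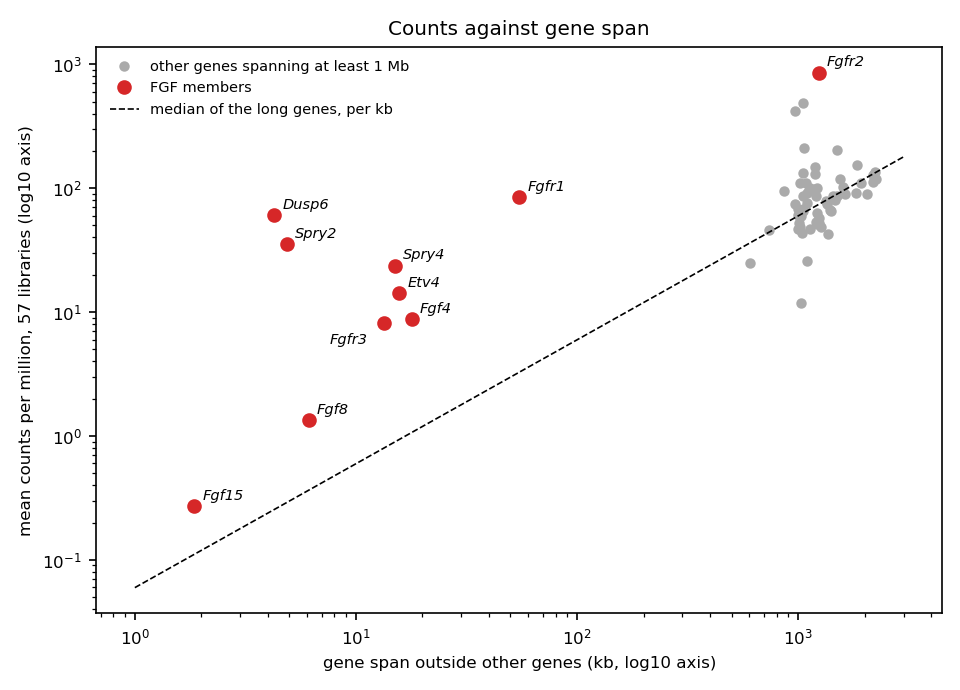
Mean CPM over 57 libraries (y axis, log10) against the part of each gene's span outside other genes in kb (x axis, log10). Red points are the 10 FGF genes, grey points the 58 other genes of at least 1 Mb, and the dashed line is the long genes' median per kb (0.0596 CPM). Fgfr2 stands above every other long gene, and Dusp6 and Spry2 lie far above the line for their short spans.

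Dusp6 and Fgfr3, which had called differences in opposite directions in the same cells, both have a promoter window in the RefSeq table used (GRCm38.p6). The 250 bases before the annotated start of Dusp6, chr10:99262981-99263230 on the plus strand, are shown because its D6 progeny difference had the smallest adjusted p of any member. The windows before the 2 annotated starts of Fgfr3, chr5:33721474-33721723 and chr5:33722056-33722305 on the plus strand, reach into its GENCODE span and are described by their counts. Capitals mark GGAA or TTCC, the core bound by ETS factors such as ETV4, on the strand shown or its complement.
Dusp6: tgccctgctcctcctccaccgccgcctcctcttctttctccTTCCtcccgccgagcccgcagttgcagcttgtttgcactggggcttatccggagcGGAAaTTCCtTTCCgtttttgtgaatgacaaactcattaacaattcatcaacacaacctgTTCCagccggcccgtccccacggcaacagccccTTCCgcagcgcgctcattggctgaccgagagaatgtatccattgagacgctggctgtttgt
The Dusp6 window held 6 cores, a number reached by 8.69% of all 32851 windows of this length in the table, whose median was 3. The Fgfr3 windows held 1 and 5, and at least 1 core was found in 93.4% of all windows. None of the longer letters searched on both strands was found in any of the windows of Dusp6, Fgf4, Fgfr2, Fgfr3 and Spry2. These were CCGGAA for ETS factors (in 12% of all windows), TGTTTAC for forkhead factors such as FOXA2 (3.17%), AGATAA for GATA factors (9.99%) and AGGTCA for nuclear receptors such as those for retinoic acid (14%). Etv4, Fgf15, Fgf8, Fgfr1 and Spry4 are named only.

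Among the ligands, Fgf8 and Fgf15 were at 0 in many libraries and Fgf4 was high at D0. None was called at an adjusted p under 0.05 in edgeR's quasi-likelihood test, which was run on all genes and adjusted by the Benjamini-Hochberg method. Of 36 comparisons, 36 could be tested for Fgf4, 31 for Fgf8 and 8 for Fgf15, the others having too few counts. Levels are given as counts scaled by DESeq2 size factors, called normalized counts below. Fgf4 (chromosome 7, 144847367 to 144865243) was highest at D0, with 2008, 2207 and 4738 normalized counts. At D2 Sox1-FoxA2- cells held 136, 723 and 506, all below every D0 library. The log2 fold change was -2.64 ± 1.15 (SE, n = 3 against 3), with an adjusted p of 0.294, among 1.41% of genes called in that comparison. With no filter on low counts the same difference had an adjusted p of 0.000267. Fgf4 was at 0 in all 3 D2 Sox1+FoxA2+ libraries, which had 25237064 or more counts in total each, and at no more than 38.0 in the D6 progeny. Total counts do not settle whether the transcript was absent, as each library was made from a small number of cells. D2 Sox1-FoxA2+ cells held 34.3, 0 and 296. D4 Sox1+FoxA2+ cells held 782 (in the library labelled replicate 1), 881 and 6.35, and D6 Sox1-FoxA2- cells 351, 1299 and 91.3, so that replicates of these conditions stood far apart.

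Fgf8 (chromosome 19, 45736798 to 45742915) had no count in 28 of 57 libraries and reached 347 normalized counts at most, in a D6 Sox1+FoxA2- library. That condition was the highest on average, with 151, 347 and 42.5, while all 3 D6 Sox1-FoxA2+ libraries were at 0. Here the groups did not overlap, and the edgeR test gave an adjusted p of 0.245 where 1.09% of genes were called. Fgf15 (chromosome 7, 144896531 to 144900953), which lies close to Fgf4 and shares 25.7% of its exon bases with genes on the other strand, had no count in 49 libraries. Only 1.851 kb of its 4.423 kb span lie outside other genes, so reads from the rest may be missing from its count. Its largest values, 166 and 121, each stood in a single D6 library whose partners were at 0, and it passed the filter on low counts in 2 of 16 fits. For both genes the spread within a condition was as wide as the levels themselves.

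**Figure D2:**
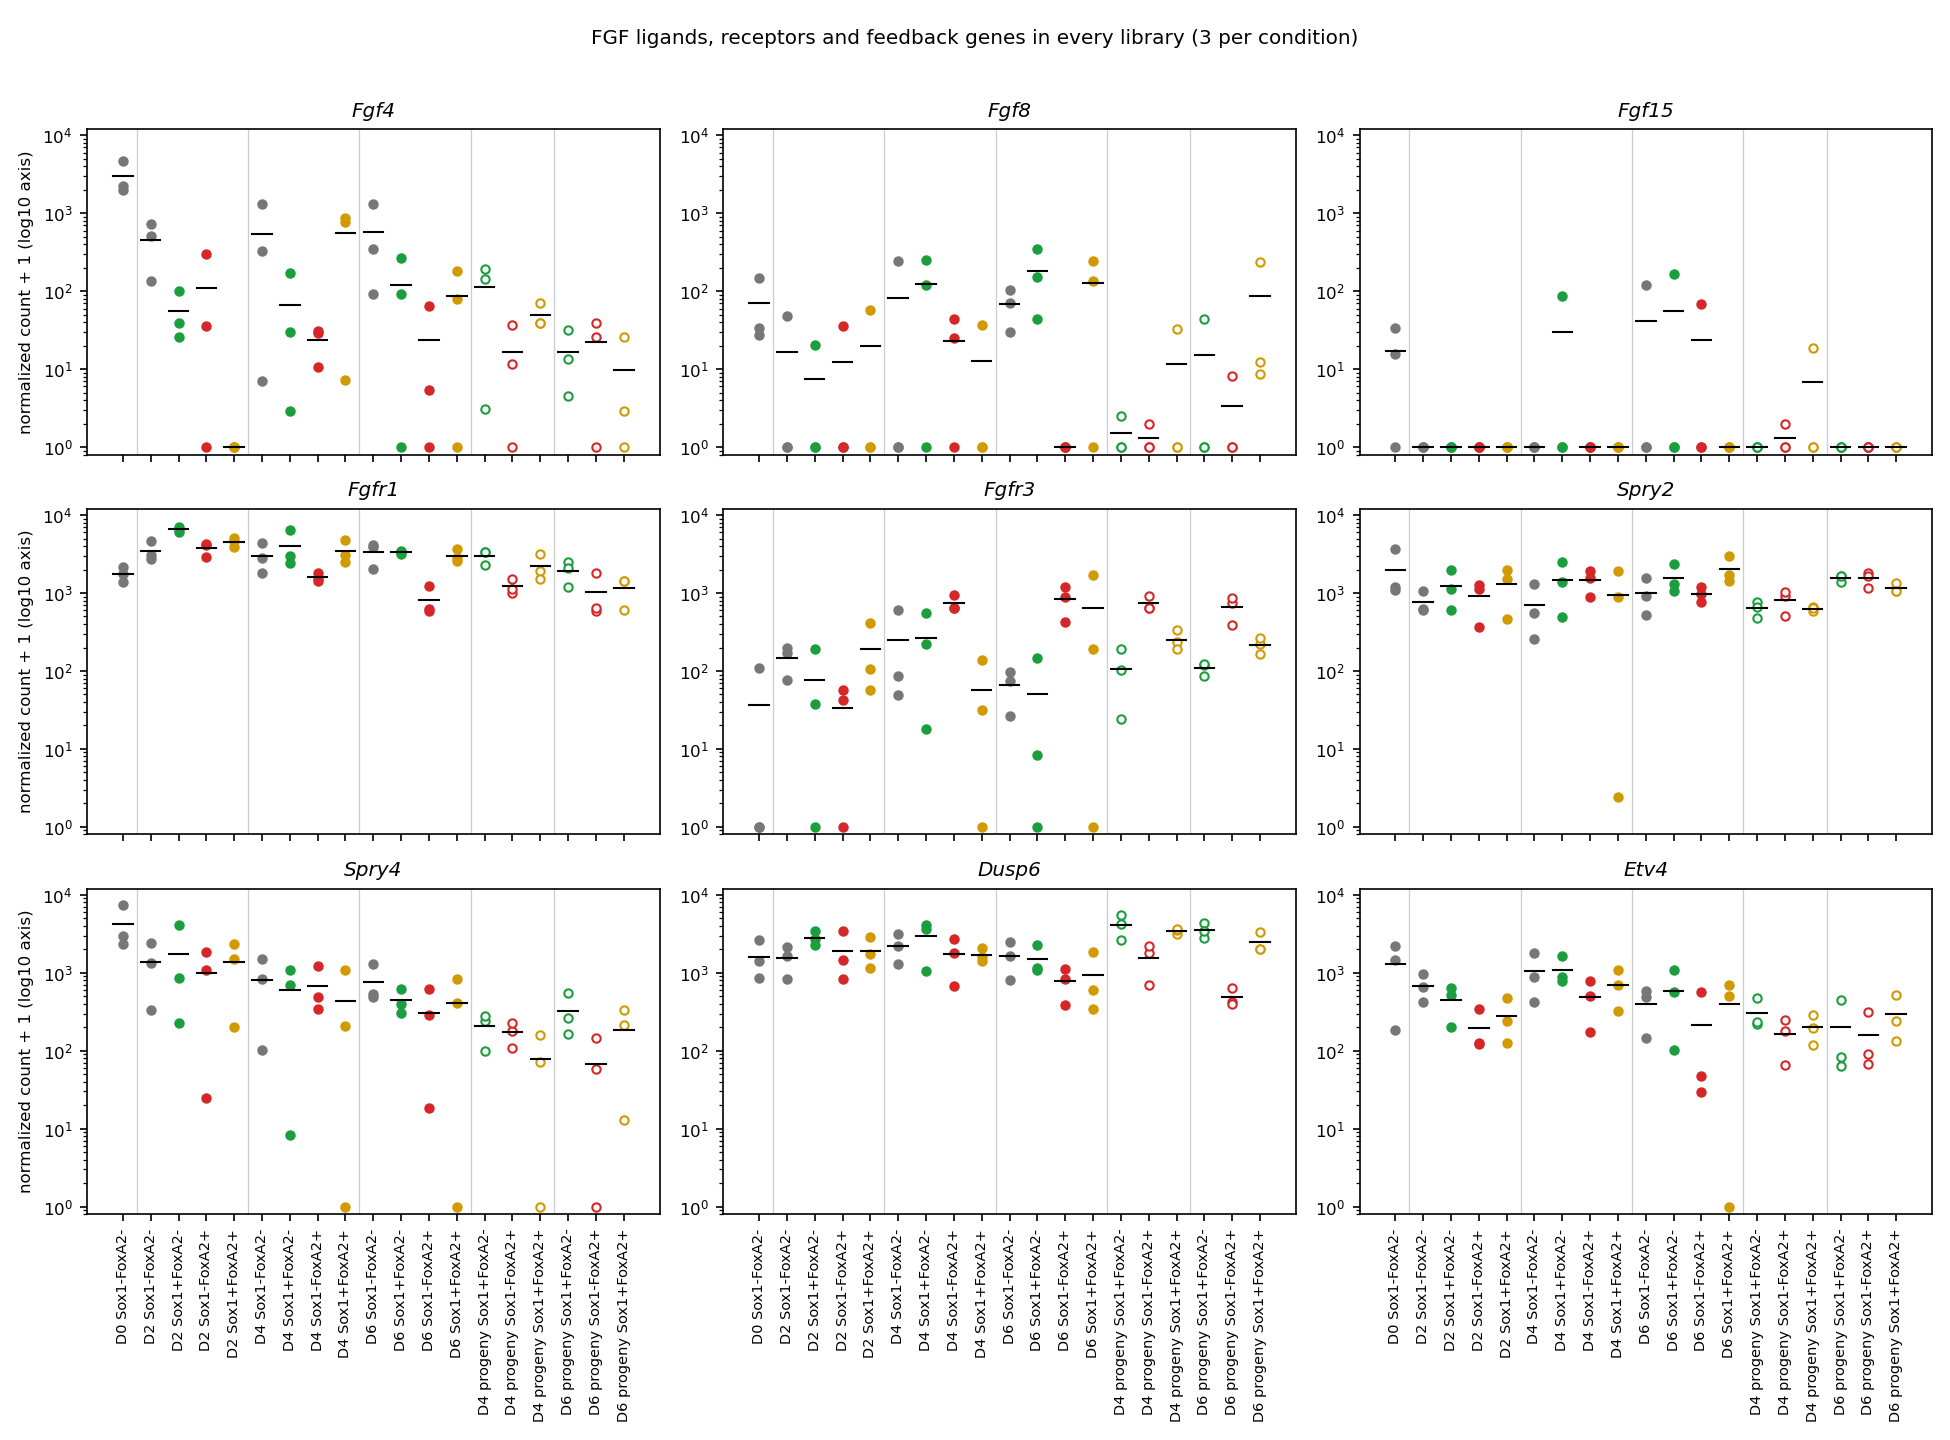
Normalized counts plus 1 (y axis, log10) of 9 FGF genes in every library of the 19 conditions (x axis). Filled circles are sorted cells, open circles progeny, colours the gate and short lines the mean of 3 libraries. Fgf4 and Spry4 are highest at D0, Fgfr1 and Dusp6 have no library at 0, and Fgf8 and Fgf15 are at 0 in 28 and 49 libraries.

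Fgfr1 (chromosome 8, 25513654 to 25575718), the receptor that responds to FGF4 in ESCs, was detected in every library, between 579 and 7099 normalized counts. It was highest on average in D2 Sox1+FoxA2- cells, at 7099, 6630 and 5994, and 1 library of the other conditions, a D4 Sox1+FoxA2- library with 6419, reached that range. D0 cells held 2175, 1773 and 1366, and D2 Sox1-FoxA2- cells 4684, 2700 and 3058. These groups did not overlap, with a log2 fold change of 0.99 ± 0.37 (SE) and an adjusted p of 0.225. At D2 the difference between Sox1-FoxA2+ and Sox1+FoxA2- cells was -0.78 ± 0.25 on the log2 scale with an adjusted p of 0.91, and the libraries did not overlap. No gene was called in that comparison by edgeR. Of 20369 genes tested, 1037 had an unadjusted p under 0.05, and DESeq2 called 346.

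Sorted Sox1-FoxA2+ libraries already lay below every Sox1+FoxA2- library in Fgfr1 at D2 and D4, without a call. At D4 they held 1424, 1820 and 1517 normalized counts against 6419, 2448 and 2995. On both days they overlapped Sox1-FoxA2- cells, which at D4 held 2811, 1812 and 4350. At D6 Fgfr1 was lower in Sox1-FoxA2+ cells than in both FoxA2- gates. Sox1-FoxA2+ cells held 579, 616 and 1231 normalized counts, Sox1+FoxA2- cells 3187, 3354 and 3487, and Sox1-FoxA2- cells 4155, 2019 and 3943. The Sox1-FoxA2+ libraries lay below all of these. The log2 fold change was -1.93 ± 0.44 against Sox1+FoxA2- (adjusted p = 0.0266) and -2.12 ± 0.44 against Sox1-FoxA2- (adjusted p = 0.0162). These were the only calls among 168 tests of members between sorted gates of the same day (1.19%), where 0.186% of all tests were called, and 1.09% and 0.83% in the 2 comparisons concerned. Of the other sorted comparisons, those with any gene called and no member were, at D2, the Sox1-FoxA2+ (0.0196% of genes) and Sox1+FoxA2+ (0.0442%) gates against Sox1-FoxA2-, and at D4 the Sox1-FoxA2+ gate against Sox1+FoxA2- (0.227%), Sox1-FoxA2- (0.266%) and Sox1+FoxA2+ (0.462%). At D6 they were the Sox1+FoxA2+ gate against Sox1+FoxA2- (0.0992%), Sox1-FoxA2+ (0.0454%) and Sox1-FoxA2- (0.0909%). The first call was lost without any 1 of 5 libraries, with adjusted p of 0.0979, 0.117 and 0.0919 without Sox1+FoxA2- replicates 1, 2 and 3 and of 0.164 and 0.166 without Sox1-FoxA2+ replicates 1 and 2. The second was lost without Sox1-FoxA2- replicates 1 or 3 (0.102 and 0.0773) or Sox1-FoxA2+ replicates 1 or 2 (0.119 and 0.106), and in both cases the fold change stayed between -2.39 and -1.81. The D6 Sox1+FoxA2+ libraries, 2 of which had little or no Foxa2 RNA, held 3650, 2791 and 2540. They also lay above the Sox1-FoxA2+ libraries, by 1.65 ± 0.44 with an adjusted p of 0.213.

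Over time Fgfr1 fell in Sox1-FoxA2+ cells, from 4135, 2905 and 4311 at D2 to the D6 values above, by 2.36 ± 0.36 on the log2 scale (adjusted p = 0.00221, 1.98% of genes called). This was the 1 call among 47 tests of members over time in sorted cells, where 0.675% of all tests were called. No member was called from D2 to D6 in Sox1-FoxA2- (0.0517% of genes called), Sox1+FoxA2- (0%) or Sox1+FoxA2+ cells (0.0887%). In Sox1+FoxA2- cells the D6 libraries were also below the D2 libraries, by 1.19 ± 0.37, with an adjusted p of 0.351. The D6 difference between the gates minus the D2 difference was -1.13 ± 0.42, with an adjusted p of 0.332 that did not pass.

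Fgfr1 was lower in D6 progeny than in the D2 parents in all 3 gates. From the D2 Sox1+FoxA2- values it fell by 1.76 ± 0.30 to 1187, 2520 and 2072 (adjusted p = 0.00326). In Sox1-FoxA2+ progeny it fell by 1.86 ± 0.41 to 1822, 587 and 641 (adjusted p = 0.0113), and in Sox1+FoxA2+ progeny by 2.02 ± 0.40 to 1427, 596 and 1412, from 3928, 5146 and 4624 (adjusted p = 0.00961). No progeny library overlapped its parents, and all 3 calls held with each library left out. In these comparisons 5.94%, 7.79% and 6.21% of all genes were called. Among D4 progeny the Sox1-FoxA2+ libraries, at 992, 1137 and 1513, lay below the Sox1+FoxA2- libraries, at 3368, 2270 and 3325. The difference of -1.26 ± 0.32 had an adjusted p of 0.0538, and of 0.00209 with the replicate number as a block. Pairing by number was inferred from correlations between these libraries and is not stated in the labels. Replicate 1 also had the fewest counts in each D4 progeny gate, and shared origin and depth were not told apart. Among D6 progeny the groups overlapped (-0.95 ± 0.47, adjusted p = 0.333). With 1 library left out, a call was gained only without Sox1-FoxA2+ replicate 1, the library at 1822 (adjusted p = 0.016).

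Fgfr3 (chromosome 5, 33721674 to 33737068) took the opposite course in FoxA2 single positive cells. FGFR3 is a receptor known for its role in bone growth, and 13.9% of its exon bases lie within a gene on the other strand, so that reads there may be missing from its count. In D2 Sox1-FoxA2+ cells it held 56.0, 41.3 and 0 normalized counts, at D4 955, 640 and 637, and at D6 1207, 430 and 882. The D4 and D6 libraries lay above every D2 library of the gate. The D6 increase of 4.55 ± 1.19 had an adjusted p of 0.0697. With 1 library left out it was called only without D2 Sox1-FoxA2+ replicate 3 (0.0276) or D6 Sox1-FoxA2+ replicate 3 (0.0229). The D2 mean of 1.03 CPM lay near the 0.799 CPM of the long genes' density. Against D6 Sox1+FoxA2- cells, at 144, 0 and 7.40, the difference was 4.23 ± 1.88 with no overlap (adjusted p = 0.381). The D6 Sox1+FoxA2+ libraries ranged from 0 to 1710, the latter in the library labelled replicate 3.

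The difference was called in the progeny. At D4, Sox1-FoxA2+ progeny held 916, 651 and 640 normalized counts and Sox1+FoxA2- progeny 101, 190 and 23.4. Fgfr3 was higher by 2.82 ± 0.65 (adjusted p = 0.0333, 1.86% of genes called). At D6 it was higher by 2.57 ± 0.48, with 383, 735 and 868 against 117, 84.8 and 123 (adjusted p = 0.00442, 6.78% called). Sox1+FoxA2+ progeny held 220, 262 and 164 at D6, between the other gates and overlapping neither. Their difference from Sox1-FoxA2+ progeny was -1.63 ± 0.46 (adjusted p = 0.0672), and from Sox1+FoxA2- progeny 0.94 ± 0.46 (adjusted p = 0.553). With 1 library left out, the first passed only without Sox1-FoxA2+ replicate 1 (0.024). From D2 parents to D6 progeny of the Sox1-FoxA2+ gate Fgfr3 rose by 4.35 ± 1.02 (adjusted p = 0.0165). The D4 call was lost without any Sox1-FoxA2+ replicate (adjusted p of 0.137, 0.0733 and 0.0556 without replicates 1, 2 and 3) and without Sox1+FoxA2- replicates 1 or 3 (0.0581 and 0.0767), whereas the D6 call and the rise from the parents held without each library. With all 57 libraries in one fit the adjusted p was 1 at D4, 0.83 at D6 and 0.3 for the rise, so that none of the 3 was called, and with only the 2 groups compared the D4 value was 0.0707.

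**Figure D3:**
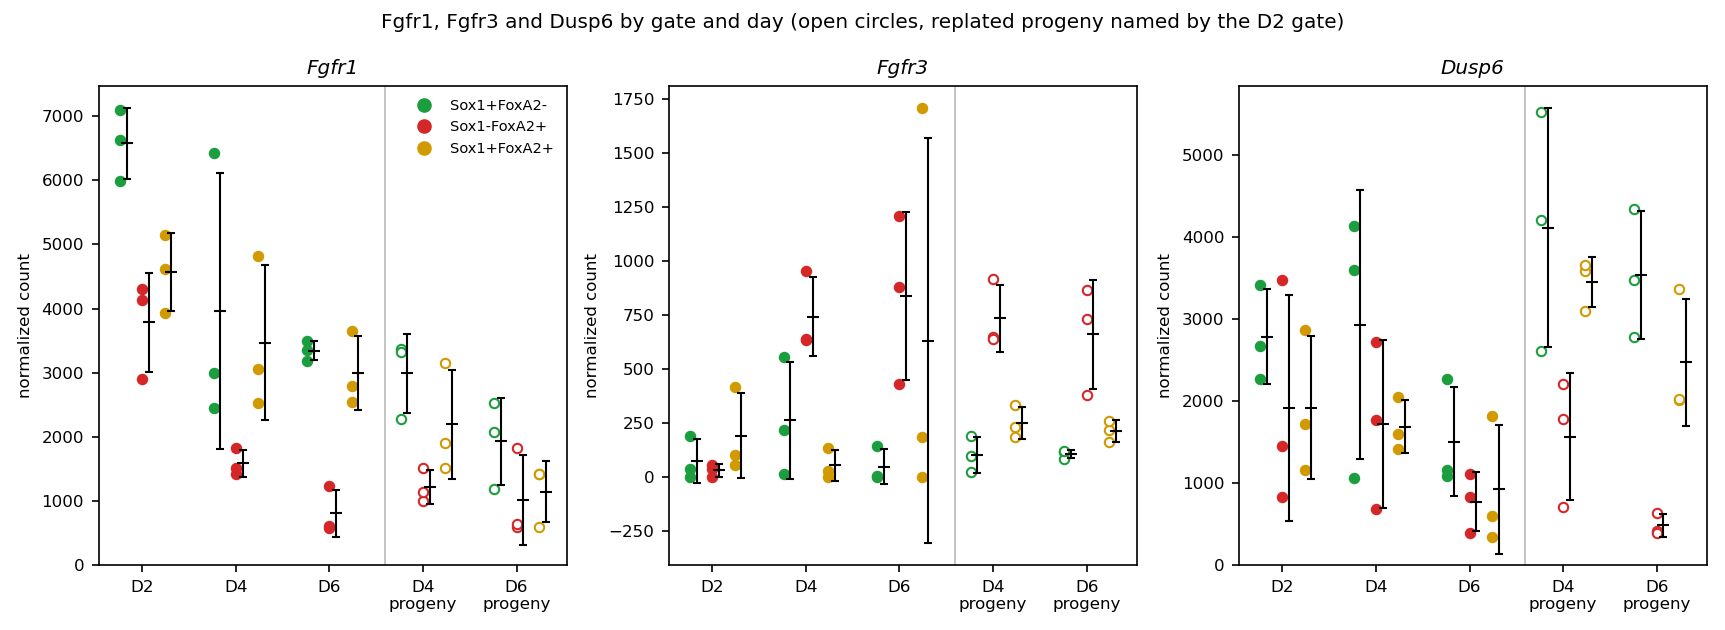
Normalized counts (y axis) of Fgfr1, Fgfr3 and Dusp6 by day and arm (x axis) in 3 gates. Circles are libraries, open for progeny, and bars beside them give the mean ± SD of 3. D6 Sox1-FoxA2+ cells are lowest for Fgfr1, Sox1-FoxA2+ cells and progeny at D4 and D6 are high for Fgfr3, and Dusp6 is lowest in D6 Sox1-FoxA2+ progeny at 393 to 639 against 2019 to 4347 in the other progeny of that day.

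For Fgfr2, whose values may include reads from the long stretch described above, sorted D4 libraries held 11917 to 37398 normalized counts in the 3 gates and D4 progeny 16597 to 84535. Replicate 1 of each progeny gate held the highest values, 68225, 84535 and 72815. These libraries had only 10170632 to 13480175 counts in total. The other D4 progeny libraries held 16597 to 41947. Sorted and progeny ranges overlapped, and the fit with the gate as a covariate gave a log2 fold change of 0.85 with an adjusted p of 0.0493. The call was lost with DESeq2 size factors (adjusted p = 0.0697) and without any 1 of 7 of the 18 libraries (0.0529 to 0.0952). These were replicate 1 of each D4 progeny gate, D4 progeny Sox1+FoxA2+ replicate 2, D4 Sox1-FoxA2+ replicate 1 and D4 Sox1+FoxA2+ replicates 2 and 3. The call held without the library labelled D4 Sox1+FoxA2+ replicate 1. With each gate fitted on its own there was no call, with adjusted p of 0.891 in Sox1+FoxA2-, 0.407 in Sox1-FoxA2+ and 0.133 in Sox1+FoxA2+.

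Among the feedback genes, Dusp6 (chromosome 10, 99263231 to 99267489), the ERK phosphatase, showed the clearest difference. In D6 Sox1-FoxA2+ progeny it held 417, 393 and 639 normalized counts. D6 Sox1+FoxA2- progeny held 4347, 2784 and 3480, and D6 Sox1+FoxA2+ progeny 2019, 2028 and 3366. The Sox1-FoxA2+ libraries thus lay well below both other gates, which overlapped each other. The log2 fold change was -2.92 ± 0.30 against Sox1+FoxA2- (adjusted p = 8.68e-05), and Sox1+FoxA2+ progeny were higher than Sox1-FoxA2+ progeny by 2.35 ± 0.30 (adjusted p = 0.000845, 4.48% of genes called). Both calls held with each library left out, between -3.14 and -2.71 and between 1.97 and 2.57, and with all 57 libraries in one fit the second had an adjusted p of 0.0775. Sox1+FoxA2+ and Sox1+FoxA2- progeny differed by -0.57 ± 0.28 (adjusted p = 0.561). The 4 calls of members between progeny gates, 2 each for Dusp6 and Fgfr3, stood among 51 tests (7.84%), where 2.35% of all tests were called. No member was called for Sox1+FoxA2+ against Sox1-FoxA2+ at D4 (0.768% of genes called) or against Sox1+FoxA2- at D4 (0%) and D6 (0.152%).

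The order of the gates for Dusp6 was the same in D4 progeny, where the Sox1-FoxA2+ libraries held 703, 1787 and 2204, below Sox1+FoxA2- (2615, 5522 and 4209) and Sox1+FoxA2+ (3100, 3589 and 3658). The differences of -1.38 ± 0.39 and 1.04 ± 0.39 had adjusted p of 0.0979 and 0.387. With the replicate block, under the same inferred pairing, they were -1.43 (adjusted p = 0.000891) and 1.19 (adjusted p = 0.00779). With 1 library left out, the first was called only without D4 progeny Sox1+FoxA2- replicate 1 (-1.68, adjusted p = 0.0144). Sox1-FoxA2+ progeny at D6 were also below their D2 parents, which held 831, 1453 and 3472. The fall of 1.94 ± 0.53 (adjusted p = 0.035) was lost without D2 Sox1-FoxA2+ replicate 3 (-1.31, adjusted p = 0.116) and without D6 progeny Sox1-FoxA2+ replicates 1 or 2 (0.099 and 0.112), and with all 57 libraries in one fit (0.063). Together with Fgfr1 and Fgfr3 this made 5 calls in 25 tests of members between D6 progeny and D2 parents (20.0%), where 6.64% of all tests were called.

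In cells sorted at D6, Dusp6 did not separate the gates. Sox1-FoxA2+ cells held 831, 1105 and 386 and Sox1+FoxA2- cells 2270, 1164 and 1084, so that the ranges overlapped, with a difference of -0.74 ± 0.68 (adjusted p = 0.736). The difference in D6 progeny minus that in sorted D6 cells was -2.12 ± 0.61, with an adjusted p of 0.214 that did not pass. With 1 library left out it passed only without D6 Sox1-FoxA2+ replicate 3 (0.0214). Across the 3 gates, D6 progeny and sorted D6 cells differed by 0.88 ± 0.38 in Dusp6 (adjusted p = 0.131). With each gate fitted on its own, the difference was 1.51 in Sox1+FoxA2- (adjusted p = 0.0115), -0.67 in Sox1-FoxA2+ (0.827) and 1.71 in Sox1+FoxA2+ (0.263). None of 18 tests of a change in a difference called a member, where 0.289% of all such tests were called, 0.408% for D6 minus D2 and 0.172% for progeny minus sorted cells. The D6 progeny were neither sorted again nor kept in the same medium as the sorted cells. Their summed endoderm markers were 1015000 to 1823000 in Sox1-FoxA2+, 170700 to 402500 in Sox1+FoxA2+ and 40230 to 120200 in Sox1+FoxA2- progeny. None of these 10 markers was at 0 throughout a gate. Of 10 neuroectoderm markers, 1, 2 and 1 were at 0 throughout these gates in the same order, Sox1 among them. Their sums ran the other way, at 6033 to 9427, 21410 to 33160 and 42690 to 65760. So did 7 mesenchyme and neural crest markers, at 2386 to 12220, 15480 to 29120 and 55430 to 79370. In sorted D6 cells these 7 summed to 547 to 814, 470 to 4490 and 1130 to 2648. The part of medium, sorting and cell types in the Dusp6 and Fgfr3 differences was not tested.

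**Figure D4:**
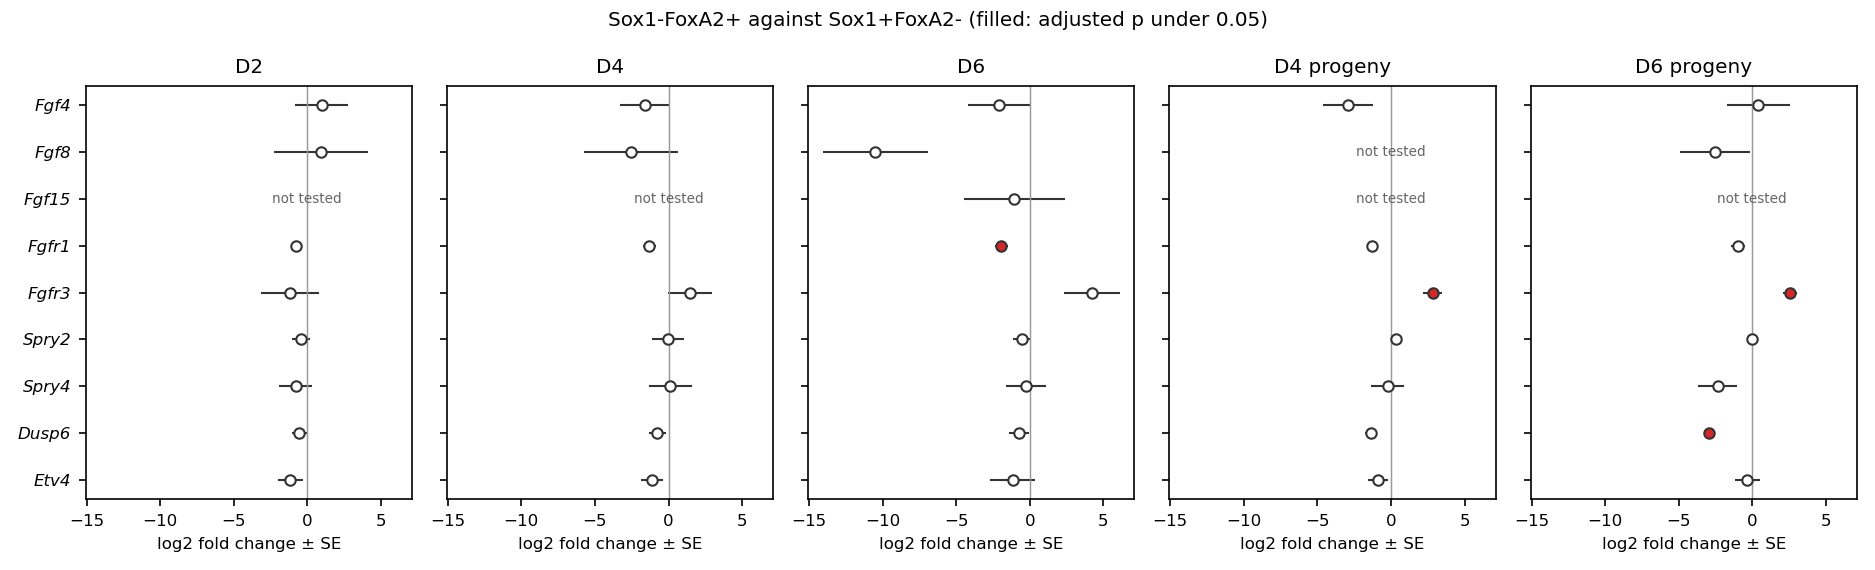
Log2 fold changes (x axis, points ± SE) of 9 FGF genes (y axis) for Sox1-FoxA2+ against Sox1+FoxA2- at D2, D4 and D6 and in D4 and D6 progeny. Filled points passed an adjusted p under 0.05: Fgfr1 at D6, Fgfr3 in D4 and D6 progeny and Dusp6 in D6 progeny.

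Etv4 (chromosome 11, 101769742 to 101785371), an ETS factor switched on by FGF signals, was lower in D4 progeny than in D4 sorted cells across the 3 gates. The 9 progeny libraries ran from 64.9 to 473 normalized counts and the 9 sorted libraries from 171 to 1654, with overlap. The log2 fold change with the gate as a covariate was -1.69 ± 0.40 (adjusted p = 0.00974) in a comparison where 6.73% of genes were called and the median of all genes was -0.24. It held without each library, the one labelled D4 Sox1+FoxA2+ replicate 1 included, between -1.81 and -1.45, but not with all 57 libraries in one fit (adjusted p = 0.137). With each gate fitted on its own Etv4 was called in none, with adjusted p of 0.31 in Sox1+FoxA2-, 0.626 in Sox1-FoxA2+ and 0.429 in Sox1+FoxA2+. At D6 the difference was -0.67 ± 0.81 (adjusted p = 0.631), with 12.1% of genes called. Together with Fgfr2 this made 2 calls in 18 tests (11.1%), against 9.45% of all tests, a share near the background. The related factor Etv5 differed in the same comparison, with 195 to 867 in D4 progeny and 1295 to 4041 in D4 sorted cells, without overlap and by -2.39 ± 0.29 (adjusted p = 9.64e-06).

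Spry4 (chromosome 18) was highest at D0, at 7406, 2970 and 2369 normalized counts, and held 329, 1329 and 2431 in D2 Sox1-FoxA2- cells, 528, 482 and 1297 in D6 Sox1-FoxA2- cells and at most 553 in any progeny library. D2 libraries of 1 gate differed up to 1843 against 23.5 in Sox1-FoxA2+ cells, and the D0 to D2 difference of -1.62 ± 0.78 had an adjusted p of 0.323. Spry2 (chromosome 14, 105891947 to 105896819) lay between 255 and 3683 in all libraries but one. The exception, D4 Sox1+FoxA2+ replicate 2, held 1.40, and Spry4 was at 0 in the same library. D6 progeny held 1631, 1367 and 1636 in Sox1+FoxA2-, 1158, 1828 and 1665 in Sox1-FoxA2+ and 1070, 1349 and 1066 in Sox1+FoxA2+ for Spry2. The Sox1-FoxA2+ and Sox1+FoxA2- progeny, which differed in Dusp6, thus overlapped in Spry2, with a difference of -0.04 ± 0.25 (adjusted p = 0.976). Neither Sprouty gene was called in any comparison. With no filter on low counts Spry4 was called in 7 comparisons, among them D6 progeny against D2 parents in Sox1+FoxA2- (-2.44, adjusted p = 0.000114), Sox1-FoxA2+ (-3.90, adjusted p = 3.85e-05) and Sox1+FoxA2+ (-2.92, adjusted p = 0.00839) and D2 against D0 (-1.60, adjusted p = 0.0104). DESeq2's Wald test called 2 of these, for Sox1+FoxA2- (adjusted p = 0.0417) and Sox1-FoxA2+ progeny (0.0339), as did edgeR without D2 replicate 1 of the gate concerned (0.0259 and 0.0352). With 1 library left out, Spry2 was called between D4 progeny and sorted cells only without D4 Sox1+FoxA2+ replicate 2 (-1.02, adjusted p = 0.0415).

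Levels were set between genes per length, and the order depended on the length used. With Fgfr2 left out, Dusp6 came first in 12 of the 19 conditions per kb of exon and Spry2 in the other 7. Per kb of the span outside other genes, a length added after the data were seen, Dusp6 came first in 15 and Spry2 in 4, and with coding length Dusp6 came first in 10, Spry2 in 5, Fgfr1 in 2 and Fgf4 and Spry4 in 1 each. At D0 the normalized count per kb of exon was 950 for Spry2, 934 for Fgf4, 894 for Spry4 and 179 for Fgfr1, and per kb of span 407, 167, 284 and 32.4, so that Fgf4 and Spry4 changed places. In D6 Sox1-FoxA2+ progeny Spry2 led on both scales, with 743 per kb of exon and 318 per kb of span. Fgfr1 and Fgfr3 stood there at 103 and 92.5 per kb of exon but 18.6 and 49.4 per kb of span, so that their order turned. In D6 Sox1+FoxA2- progeny Fgfr1 was above Fgfr3 on both, at 195 and 15.1 per kb of exon and 35.2 and 8.09 per kb of span.

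The genes whose mean log2 CPM over the 19 conditions followed each member most closely were Tead2, Scamp5 and Zdbf2 for Dusp6 (Pearson r of 0.94, 0.93 and 0.90 over 19 means, across 17910 other genes). For Fgfr1 they were Hace1, Zfp423 and Pdk3 (0.93, 0.92 and 0.91), for Fgfr3 Morc4, Kctd11 and Slc1a4 (0.92, 0.87 and 0.86), for Spry4 Tcf15, Sarnp and Wdr12 (0.92, 0.91 and 0.91) and for Fgf4 Tcea3, Tet2 and Sirt1 (0.90, 0.89 and 0.88). For Etv4 they were Ggct, Gm6563 and Eras (0.86, 0.84 and 0.84), for Spry2 Selenok and Slc30a6 (0.81 and 0.81), for Fgf8 Flt3, Cnga3 and Gm43069 (0.85, 0.84 and 0.83), for Fgf15 Mybpc1, n-R5s46 and Eln (0.76, 0.73 and 0.73) and for the Fgfr2 stretch Gphn, Il31ra and CT010467.1 (0.87, 0.86 and 0.84). The points share library depth and preparation. Fgfr1 and Fgfr3 themselves, on log2 normalized counts plus 1, were related with an r of -0.62 over the 19 means. Over the 57 libraries r was -0.46, and for deviations from the condition means -0.195.

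Other genes of the pathway, 63 of which were in the table, differed in the same comparisons. Between Sox1-FoxA2+ and Sox1+FoxA2- D6 progeny, 5 of the 56 tested were higher and 7 lower, with 6.78% of all genes called, and the median log2 fold change was -0.23 for these genes, -0.33 for the 9 members tested and -0.04 for all genes. Klb, the coreceptor through which FGFR4 and other receptors bind endocrine FGFs such as FGF15, stood at 1683, 1190 and 2051 normalized counts in Sox1-FoxA2+ and 19.3, 47.4 and 61.5 in Sox1+FoxA2- progeny, higher by 5.27 ± 0.48 (adjusted p = 3.72e-05). It was also higher in D4 progeny (4.40 ± 0.47, adjusted p = 5.52e-05), and in Sox1+FoxA2+ over Sox1+FoxA2- D6 progeny (3.99 ± 0.46, adjusted p = 0.00225). Hs6st1, which sulphates heparan sulphate, was higher in Sox1-FoxA2+ D6 progeny by 1.91 ± 0.29 (adjusted p = 0.000975). The inhibitors Spry1 and Spred1 were lower there, like Dusp6, with log2 fold changes of -3.73 ± 0.45 (adjusted p = 0.00023) and -2.34 ± 0.33 (adjusted p = 0.000641). Of the 13 other feedback and target genes in the table, 5 were lower and none higher in this comparison.

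Between Sox1+FoxA2+ and Sox1-FoxA2+ D6 progeny, 6 of 56 other pathway genes were higher and 3 lower, with 4.48% of genes called and a median of 0.08, against 0.62 for the members and 0.09 for all genes. The 4 with the smallest adjusted p were feedback genes. The MAP kinase phosphatase Dusp4 was higher by 2.42 ± 0.35 (adjusted p = 0.00186) with 5561, 6069 and 5759 against 1733, 700 and 769. Spred1 (2.21 ± 0.33, adjusted p = 0.00215), Spred2 (1.23 ± 0.20, adjusted p = 0.00352) and Spry1 (2.65 ± 0.43, adjusted p = 0.00367) were also higher, like Dusp6. Both comparisons share the Sox1-FoxA2+ libraries.

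**Figure D5:**
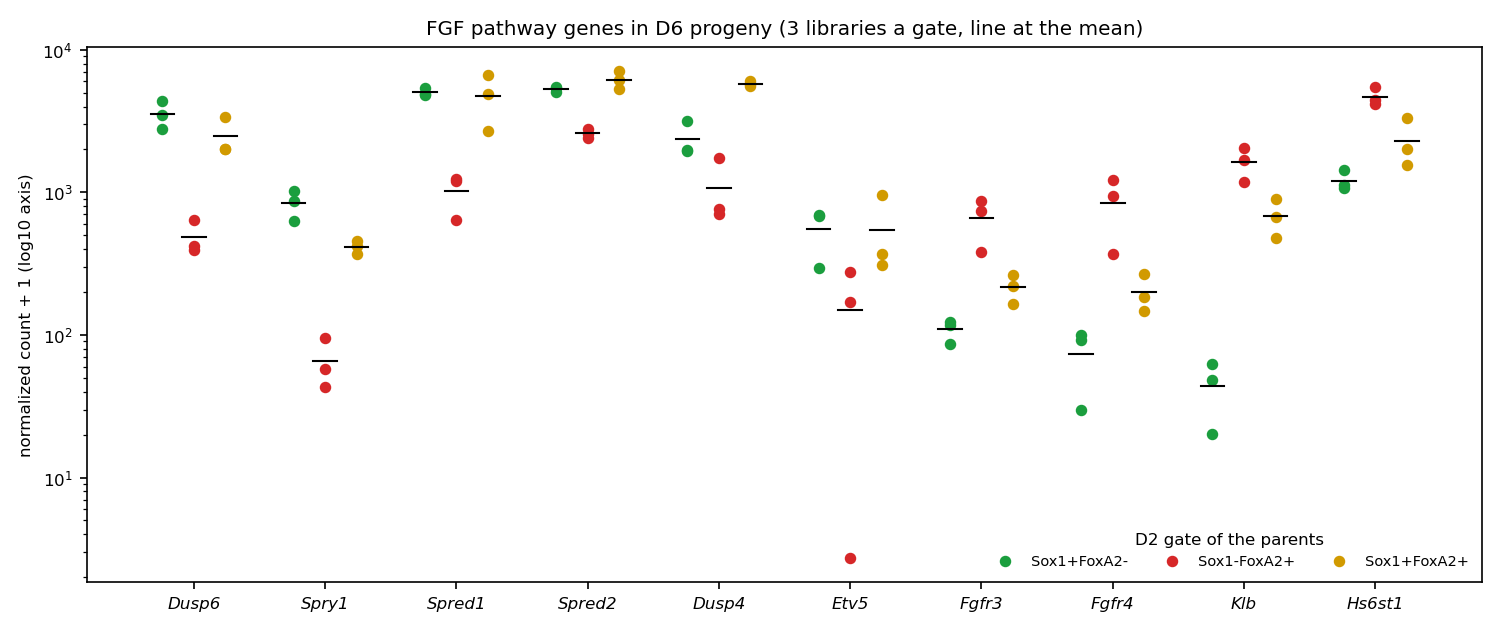
Normalized counts plus 1 (y axis, log10) of Dusp6, Fgfr3 and 8 other FGF pathway genes (x axis) in D6 progeny, 3 libraries a gate with a line at the mean. Dusp6, Spry1, Spred1 and Spred2 are lowest in Sox1-FoxA2+ progeny, where Fgfr3, Klb and Hs6st1 are highest.

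In sorted cells of the same day, pathway genes were called only at D6. Fgf10, a ligand of FGFR2 in epithelia, stood above its Sox1+FoxA2- level in Sox1-FoxA2+ cells by 3.16 ± 0.64 (adjusted p = 0.0102), and so did the adaptor gene Frs2, by 1.93 ± 0.41 (adjusted p = 0.0157). Both were also higher than in Sox1-FoxA2- cells, by 3.70 ± 0.65 (adjusted p = 0.00385) and 1.85 ± 0.41 (adjusted p = 0.0241). None of 57 pathway genes tested was lower in either comparison. Over all 24203 genes tested, 1.09% and 0.83% were called, and only 59 and 67 were lower. Fgf10 also differed between Sox1+FoxA2+ and Sox1-FoxA2- cells, by 3.46 ± 0.65 (adjusted p = 0.0228, 0.0909% of all genes called). Over time in Sox1-FoxA2+ cells, where 1.98% of all genes were called, 3 of 55 pathway genes rose from D2 to D6, Fgf10, Frs2 and Flrt2, and Il17rd, a membrane inhibitor of FGF signalling, fell by 3.13 ± 0.47 (adjusted p = 0.00177). Between progeny and sorted cells, 4 of 57 were higher and 5 lower at D4 (6.73% of all genes called), where the 4 with the smallest adjusted p, Etv5, Fgf14, Il17rd and Etv1, were all lower, and 7 were higher and 5 lower at D6 (12.1% of all genes called), among them Ndst1, Dusp4 and Ptpn11 on the higher and Fgf12 on the lower side.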

How the data were processed

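RNA was measured in bulk by SMART-Seq Stranded libraries, each made from a small number of cells and sequenced on an Illumina NovaSeq, 39 of sorted cells and 18 of progeny. The authors used STAR for alignment and featureCounts with the GENCODE M21 annotation (GRCm38) for counting, and the deposited values are raw counts per gene, without molecular identifiers. Versions and counting options are not given in the sources used here. The 92 lines naming no gene hold 0 counts. All 55450 identifiers matched a symbol, and 80.6% of non-zero counts were even, a fact whose cause was not tested.

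Counts were tested with edgeR 4.0.16 in R 4.3.3 (TMM scaling, genes kept by filterByExpr at a count of at least 10 and a total of at least 15, then the quasi-likelihood test) on all genes, in 16 fits giving 36 comparisons, two-sided, with Benjamini-Hochberg adjustment and calls at an adjusted p under 0.05. Fits held the libraries of a day, of a gate over time, or of progeny and sorted cells with the gate as covariate. Normalized counts use DESeq2 1.42.0 size factors over all 57 libraries. On simulated counts for D6 progeny Sox1-FoxA2+ against Sox1+FoxA2- (19557 genes), 1.49%, 43.3% and 47% of genes changed by a log2 fold of 1, 2 and 3 were called. For the same gates sorted at D6 (22501 genes) these shares were 0%, 8.96% and 27.3%, and at D2 (19018 genes) 1.49%, 22.4% and 33.3%. Precision is limited by 3 replicates per condition, which the labels number without stating a shared origin.

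The members and gene lists were chosen with earlier results of these data known. Named genes were the 10 members, Foxa2 and Sox1 as gate check, for each comparison at most the 4 other called pathway genes with the smallest adjusted p, and for each member the 3 genes most alike, of which 1 is not reported here. Alternatives were DESeq2's Wald test, its size factors in edgeR, no filter on low counts, a replicate block, all 57 libraries in one fit, only the groups compared, and leaving out each library, and, chosen after seeing the data, the span outside other genes as the length for levels. Replicate numbers were taken to pair 2 groups where the deviations of all 3 same-numbered libraries correlated above 0.1, which held for 9 of 18 pairs of sorted gates, 4 of 6 pairs of progeny gates (all 3 at D4) and 1 of 5 pairs over time. Promoter windows are from RefSeq (GRCm38.p6), which gave one for 5 of the 10 genes.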

Additional observations from a re-analysis of the deposited data

How the results depend on the processing

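The 14 calls of a member gave 226 values under the alternatives, of which 193 stayed past the threshold, 33 did not and 0 reversed. Without 1 library at a time 9 of the 14 held throughout, under the other alternatives 7, and under both 5. The number of members called between sorted gates of a day was 2, and 10 with DESeq2's Wald test. Between progeny gates it was 4, and 7 with the Wald test, with no filter on low counts or with the replicate block, and 1 with all 57 libraries in one fit. Over time it was 1, and 5 with the Wald test, 6 with no filter and 2 with the replicate block. Between D6 progeny and D2 parents it was 5, and 8 with no filter and 3 with all 57 libraries in one fit. Between progeny and sorted cells it was 2, and 5 with no filter and 1 each with DESeq2 size factors, the replicate block and all 57 libraries in one fit. With each gate fitted on its own it was 1, Dusp6 at D6 in Sox1+FoxA2-, which was not among the 2 main calls. For a change of a difference it was 0, and 1 with the Wald test. Leaving out 1 library gave 0 to 2, 3 to 6, 1 to 2, 4 to 6, 1 to 3 and 0 to 1 in the same order.

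The Wald test's added calls include Fgf4 and Fgf8 where 1 group was at 0 in every library. No filter added 15 calls, 7 of them of Spry4, and Fgf4 between D2 and D0. Over all genes and comparisons, 13377 calls became 53217 with the Wald test, 25316 with no filter, 16475 with the replicate block, 9545 with all 57 libraries in one fit and 13602 with DESeq2 size factors, and the median of all genes moved by up to 0.38 (log2) in these and 0.47 without 1 library. The replicate block also gave Fgfr3 over time in Sox1-FoxA2+ cells an adjusted p of 0.0322 and the Fgfr2 stretch 0.0936. Replicate numbers were not taken to pair those groups. Beyond these and the D4 progeny values given above the block changed no other call of a member. Genes with few counts, Fgf8 and Fgf15 first, are limited by 3 replicates and by the small number of cells in each library. The parts of cell number and depth in their zeros were not tested.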
